A study of Mus musculus with 4 samples.

Results

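Gamma-delta T cells were followed in single-cell RNA sequencing of pancreatic tumours. These cells are T lymphocytes whose antigen receptor is built from a gamma and a delta chain in place of the alpha and beta chains of most T cells. Cells were chosen by their own UMIs (unique molecular identifiers, which count captured RNA molecules): at least 2 over Cd3e, Cd3d and Cd3g, which encode chains of the CD3 signalling complex, at least 2 over Trdc and Trdv4, the constant and one variable segment of the delta chain, and none of Cd8b1, Cd4, Foxp3 or Cd79a. The rule found 139 cells among 14855 kept cells, those with a minimum of 200 genes and 500 UMIs and no more than 10% of UMIs from mitochondrial genes. Levels of those genes were therefore used to pick the cells and are given as description only. All 139 cells had a Trdc UMI, so none entered by Trdv4 alone.

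The tumours were orthotopic B6KPC3 pancreatic tumours in C57BL/6 mice, and CD45-enriched cells were sorted from them, so the cells are tumour leukocytes. Treatment began when the tumours were 7 days old. Mice of 2 libraries received AT38, known here by its code name alone, at 30 mg/kg per day for 7 days by paired intraperitoneal injections in 1% carboxymethyl cellulose in water, and mice of the other 2 libraries received that vehicle. Each library pooled 4 mice and counts as 1 replicate, so p-values measure the spread between pools. No mouse-level value can be had from a pool, and the labels give no age of the animals.

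The gamma-delta T cells numbered 22 in vehicle replicate 1, 39 in vehicle replicate 2, 48 in AT38 replicate 1 and 30 in AT38 replicate 2. They carried 140971, 254552, 363321 and 221760 UMIs in that order, and their median depth was 4978 UMIs per cell. Whole libraries held between 24294215 and 34386076 UMIs. A single cell supplied between 7.32% and 15.5% of a library's gamma-delta UMIs, so every summed value below rests on few cells. Among kept cells, 17 barcodes occurred in more than 1 library, and 0 of them belonged to the chosen cells. No library stood apart by depth, but 1 gamma-delta cell of vehicle replicate 1 held 1739 immunoglobulin UMIs among its 9674, against 7 in the next highest cell. Alpha-beta T cells, the comparison population, were the 3339 cells with at least 2 Cd3 UMIs, at least 1 UMI of Cd4 or Cd8b1 and none of Trdc or Cd79a. Their median depth was 6706 UMIs. That gate leaves out T cells in which neither coreceptor was captured, and it keeps Foxp3-positive cells, which the gamma-delta rule removes.

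Gamma-delta T cells are known to mature in the thymus into separate effector kinds. One makes interleukin 17, responds to interleukins 1 and 23, settles in tissues and often bears a receptor whose delta chain uses Trdv4 and whose gamma chain uses Tcrg-V6. Another makes interferon gamma, carries receptors shared with natural killer (NK) cells and recirculates more freely. Interleukin 17 from gamma-delta T cells is known in pancreatic and other tumours for its ties to neutrophil recruitment.

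The gamma chain genes were not part of the rule and so checked the label. The 4 gamma constant genes are shown here because some of them differ little. The coding bases of Tcrg-C1, Tcrg-C2 and Tcrg-C3 differ little, so UMIs may be divided between them wrongly, whereas those of Tcrg-C4 differ more. Whether UMIs were so divided was not tested. The counts come from a 3′ kit, and bases after the coding part were not compared. The lines below give the first 90 coding bases of all 4 genes, from the GENCODE M21 annotation on GRCm38. Capitals mark the bases that differ from Tcrg-C1 in a global alignment.
Tcrg-C1: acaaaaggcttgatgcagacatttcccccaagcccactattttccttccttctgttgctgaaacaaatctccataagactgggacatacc
Tcrg-C2: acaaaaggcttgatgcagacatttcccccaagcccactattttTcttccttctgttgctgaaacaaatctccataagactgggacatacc
Tcrg-C3: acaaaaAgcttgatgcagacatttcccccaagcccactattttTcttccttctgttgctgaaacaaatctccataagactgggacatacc
Tcrg-C4: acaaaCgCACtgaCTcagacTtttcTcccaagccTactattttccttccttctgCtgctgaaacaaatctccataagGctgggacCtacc
Over their coding parts Tcrg-C1 and Tcrg-C2 were identical at 97.4% of aligned bases, whereas Tcrg-C1 and Tcrg-C4 were identical at 77.3%. All 4 lie in the T cell receptor gamma locus of chromosome 13, with coding exons of Tcrg-C1 at chr13:19214103-19216615 on the plus strand and of Tcrg-C4 at chr13:19344558-19352340 on the plus strand. Coding exons of Tcrg-C2 lie on the minus strand at chr13:19305063-19307551. Trdc lies at chr14:54142851-54148868 on the plus strand.

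A UMI of any gamma gene was found in 115 of the 139 cells. Tcrg-C1 was detected in 90 cells, Tcrg-C4 in 56, Tcrg-C2 in 50 and Tcrg-C3 in 1. In alpha-beta T cells Tcrg-C1 was detected in 2.96% of cells and in B cells, which should lack it, in 0.257% at a median of 3259 UMIs. Summed Tcrg-C1 was 248, 287, 314 and 329 CPM (a gene's UMIs per 1000000 UMIs of the summed cells) in the 2 vehicle and 2 AT38 libraries of gamma-delta T cells, against 2.74, 9.52, 5.44 and 4.83 CPM in alpha-beta T cells. The groups did not overlap, and the log2 difference was 5.78 ± 0.22 (SE, n = 4 libraries per type; edgeR adjusted p = 5.77e-25). Tcrg-C4 differed by 4.93 ± 0.35 on the log2 scale. Tcrg-C2 differed by 1.28 ± 0.23; 64.2% of all its UMIs lay in alpha-beta T cells with Cd8b1 and 4.87% in gamma-delta T cells.

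Of the 3 constant regions of the alpha-beta receptor, Trbc2 alone passed the test as lower in gamma-delta T cells. Trac, the alpha constant region, was found in 18.7% of gamma-delta cells, in 95.3% of alpha-beta T cells and in 9.54% of NK-like cells, at median depths of 4978, 6706 and 4661 UMIs. Summed Trac was 156, 70.7, 27.5 and 36.1 CPM in gamma-delta and between 556 and 656 CPM in alpha-beta T cells, without overlap, yet the edgeR adjusted p was 0.0728 (log2 difference -3.23 ± 0.51). Trbc2, a beta constant region, was captured in 79.9% of gamma-delta cells, at 444 ± 33.2 CPM (mean ± SD, n = 4) against 958 ± 168 CPM in alpha-beta T cells (log2 difference -1.06 ± 0.11, edgeR adjusted p = 3.39e-11). Trbc1 did not pass the test (log2 difference -0.16). Beta chain RNA was thus present in most of the cells, and only 13 of the 139 had no UMI of Trac, Trbc1 or Trbc2. The label of gamma-delta T cells rests on Trdc, on the gamma genes and on the few cells with Trac, not on absent beta chain RNA.

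Of the 26 cells with exactly 2 UMIs of Trdc and Trdv4, 73.1% had a gamma gene, 84.6% had Nkg7, a granule protein of cytotoxic lymphocytes, and 11.5% had Cd163l1. Of the 113 cells with 3 or more, 85.0% had a gamma gene, 46.0% had Nkg7 and 48.7% had Cd163l1. The 44 cells with 1 UMI that met the other conditions had a gamma gene in 54.5%, Nkg7 in 75% and Cd163l1 in 2.27%. NK-like cells were gated on NK markers without UMIs of Cd3e, Cd3d or Cd3g. They also held Trdc in 19.7% of 325 cells, whereas Tcrg-C1 was found in 0.923% of them. Ncr1, an NK receptor gene, was present in 18.2% of the cells with 1 UMI, in 23.1% of those with 2 and in 6.19% of those with 3 or more. In Nkg7, Cd163l1 and Ncr1 the cells with 2 UMIs were closer to those just outside the rule than to those with 3 or more.

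The cells divided almost completely by a pair of genes. Cd163l1, which encodes a scavenger receptor family protein known from interleukin 17-producing gamma-delta T cells, was found in 58 cells, Nkg7 in 74, neither in 7 and both in 0. These genes were chosen after their values were seen, so the division is a description with no test. Cd163l1-positive cells made up 45.5% and 46.2% of gamma-delta T cells in the vehicle libraries and 41.7% and 33.3% in the AT38 libraries. Nkg7-positive cells made up 50% and 53.8%, then 54.2% and 53.3%. Both kinds were present in every library at similar depth, with medians of 4928.5 and 5025 UMIs per cell.

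**Figure D1:**
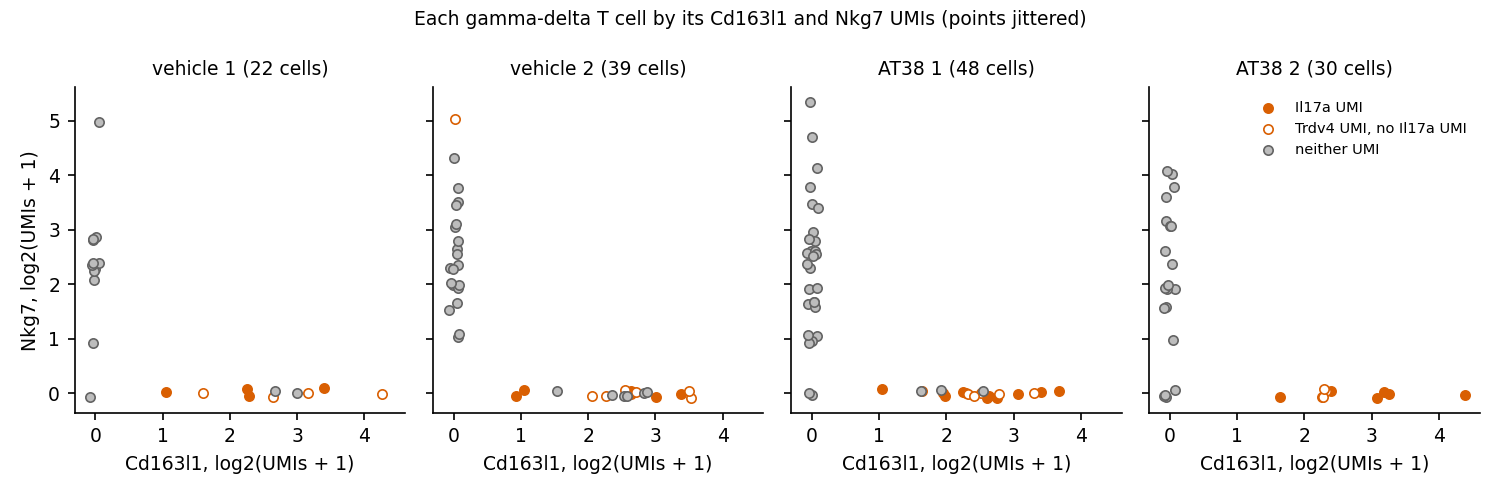
Each point is 1 gamma-delta T cell, placed by log2(UMIs + 1) of Cd163l1 (horizontal) and Nkg7 (vertical) in 4 panels, 1 per library. Filled orange cells had an Il17a UMI, open orange cells a Trdv4 UMI without Il17a, and grey cells neither; no cell lies away from both axes, and all 29 Il17a-positive cells lie on the Cd163l1 axis.

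The Cd163l1-positive cells carried the interleukin 17 programme. Il17a, the cytokine gene, was found in 29 gamma-delta cells, and all 29 were Cd163l1-positive. Il1r1, the interleukin 1 receptor, was found in 39 Cd163l1-positive and 0 Nkg7-positive cells, Il23r, the interleukin 23 receptor, in 29 against 0, and Sox13, a transcription factor of this lineage, in 28 against 0. Blk, a Src-family kinase gene, was in 43 against 1, and Maf, a transcription factor of interleukin 17-producing cells, in 46 against 10. Zbtb16, the gene of the innate-like T cell factor PLZF, was in 31 against 5. Surface and signalling genes went the same way: Actn2 (alpha-actinin 2) in 44 against 1, Igf1r (an insulin-like growth factor receptor) in 43 against 1 and Ramp1 (a subunit of the receptor for the neuropeptide CGRP) in 41 against 5.

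By library, Il17a in the Cd163l1-positive cells was 538 and 987 CPM with vehicle and 475 and 1085 CPM with AT38. Both treatments therefore held 1 lower and 1 higher library. Blk in the same cells was 299, 165, 352 and 347 CPM, and Il1r1 was 139, 174, 187 and 302 CPM. Il17a UMIs were concentrated in few cells, the 5 highest holding 72.0% of its 307 UMIs.

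Trdv4 marked a large share of this side. Of the 45 cells with Trdv4, 44 were Cd163l1-positive, 26 had Il17a and 1 had Nkg7. In each library most Trdv4-positive cells had Cd163l1, with 7 of 7, 11 of 12, 17 of 17 and 9 of 9. Il17a was found in 3, 5, 12 and 6 of them. Tcrg-V6, the gamma variable segment that pairs with the product of Trdv4, was detected in 11 cells, all Cd163l1-positive. Tcrg-C1 was in 56 of the 58 Cd163l1-positive and 33 of the 74 Nkg7-positive cells, whereas Tcrg-C4 was in 25 and 30. With fewer than 10 Trdv4-positive cells in 2 libraries, no test of Trdv4-positive against Trdv4-negative cells was made.

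Nkg7-positive cells carried genes of interferon gamma-producing and NK-like lymphocytes. Ifng, the interferon gamma gene, was found in 30 of them and in 0 Cd163l1-positive cells. Eomes was in 21 against 0 and Tbx21, which encodes T-bet, in 30 against 2, both being transcription factors of that programme. Ccl5, a T cell chemokine, was in 66 against 10, and Xcl1, a dendritic cell attractant, in 52 against 2. NK receptor genes followed: Klrd1 (CD94) in 60 against 4, Klrc1 (NKG2A) in 42 against 2 and Klra1, of the Ly49 family, in 24 against 1. Cd27, a costimulatory receptor, was in 24 against 1.

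Ifng in Nkg7-positive cells was 177 and 99.2 CPM with vehicle and 174 and 36.3 CPM with AT38. Xcl1 was 435 and 1005 CPM with vehicle and 2303 and 1043 CPM with AT38. In AT38 replicate 1, 1 cell held 309 of the 423 Xcl1 UMIs of that library's gamma-delta T cells. Without that cell alone, AT38 replicate 1 had 638 CPM, below the 1005 CPM of the untrimmed vehicle replicate 2. Without the highest Xcl1 cell of every library, the values were 228 and 458 CPM with vehicle and 638 and 823 CPM with AT38. The treatments overlapped for Ifng. For Xcl1 in Nkg7-positive cells both AT38 values were above both vehicle values, untrimmed and with every library trimmed alike. Over all gamma-delta T cells Xcl1 was 270 and 597 CPM with vehicle and 1164 and 532 CPM with AT38. The treatments overlapped there. The values of Nkg7-positive cells are given as description because the cells were split after their values were seen. Of the 24 cells without any gamma gene UMI, 19 were Nkg7-positive, so the receptor evidence was thinner on this side.

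**Figure D2:**
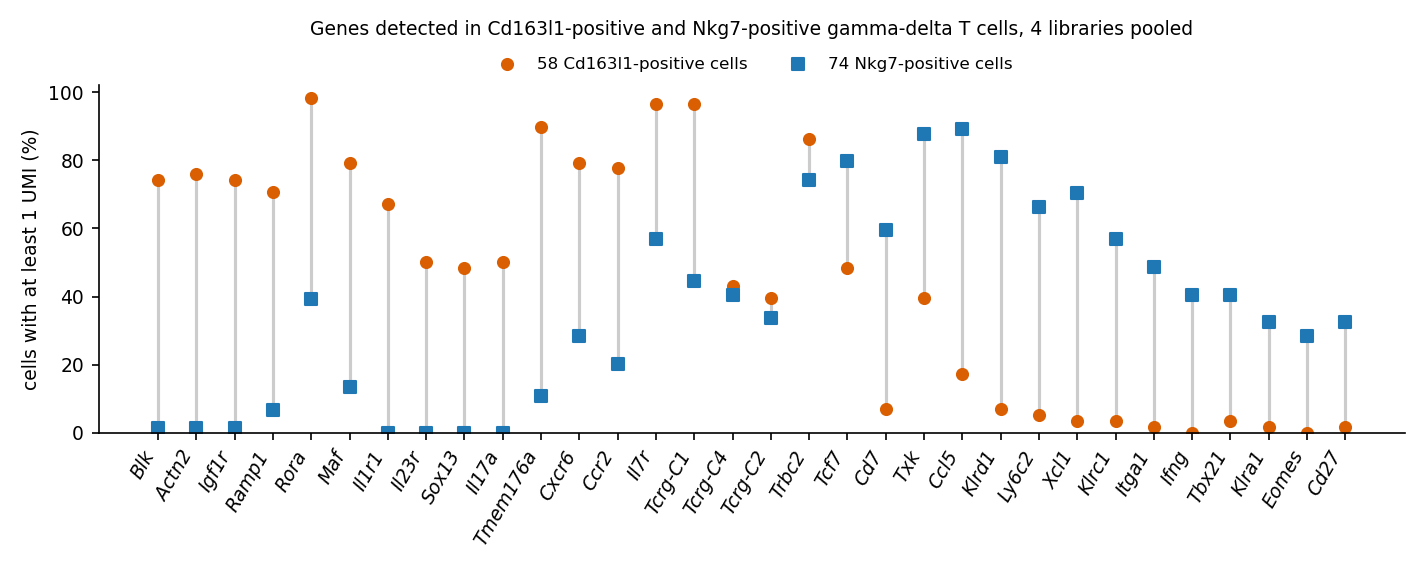
Share of cells (%) with at least 1 UMI of each gene among the 58 Cd163l1-positive (orange circles) and 74 Nkg7-positive (blue squares) gamma-delta T cells, the 4 libraries pooled and the genes set side by side along the horizontal axis. Blk, Il1r1, Il23r, Sox13 and Il17a are at or near 0% in Nkg7-positive cells, Ifng, Eomes, Cd27 and Klra1 are at or near 0% in Cd163l1-positive cells, and Tcrg-C4 and Tcrg-C2 are close together.

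Gamma-delta and alpha-beta T cells were then compared across all genes, with the library as a term so that both types of 1 pool were set against each other. The genes of both gates and Cd8a were left out. Of 10661 genes tested, 754 passed (7.07%): 416 were higher in gamma-delta T cells (3.9%) and 338 lower (3.17%). Leading the higher genes were the scavenger receptor, kinase and cytokine genes of the Cd163l1-positive side and Ly49 receptor genes of the Nkg7-positive side. Ccl1, Penk and Cd6 were among the largest lower differences, and Cd5, Themis and checkpoint receptors were lower as well. With DESeq2 the split was 358 higher and 169 lower, so the higher share moved from 55.2% to 67.9%.

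Of the 26 genes in the list for the interleukin 17 programme 24 were tested, 20 were higher in gamma-delta T cells and 0 lower, with a median log2 difference of 2.23 against -0.07 over all genes tested. The background share of higher genes was 3.9%. This list, like the others, was chosen with earlier results of these data known. Cd163l1 was 454, 377, 272 and 298 CPM in gamma-delta and between 0.289 and 0.942 CPM in alpha-beta T cells (log2 difference 9.05 ± 0.26, edgeR adjusted p = 3.32e-32). Every gamma-delta sum lay far above every alpha-beta sum. Of all 412 Cd163l1 UMIs in kept cells, 78.9% lay in the 139 gamma-delta cells. The gene lies at chr7:140218267-140231145 on the plus strand.

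Il17a was 192, 401, 223 and 437 CPM in gamma-delta T cells and 7.08, 13, 5.44 and 19.4 CPM in alpha-beta T cells. No value overlapped, and the log2 difference was 4.91 ± 0.19 (edgeR adjusted p = 7.32e-32). Cells with an Il17a UMI made up 20.9% of gamma-delta T cells (95% exact binomial interval 14.4% to 28.6%, counting error only), 1.68% of alpha-beta T cells and 0 of 325 NK-like cells. Thinned to 1000 UMIs per cell, the first 2 shares were 8.63% and 0.902%. The gamma-delta T cells of the rule nevertheless held a minority of the Il17a UMIs of kept cells, 24.9% of 1234. Alpha-beta T cells held 33.0%, with 28.4% in those with Cd4 and no Cd8b1, and other cells with Cd3 held 37.6%. Of these 1339 other cells 94 had a Trdc UMI, so that class was not shown to be free of gamma-delta T cells.

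Il17f, the neighbouring cytokine gene, did not pass, at 21.3, 7.86, 2.75 and 0 CPM in gamma-delta T cells (log2 difference 1.02 ± 0.83, edgeR adjusted p = 0.599). The gamma-delta cells held 6 of its 215 UMIs. Both genes lie on chromosome 1, Il17a at chr1:20730905-20734496 on the plus strand and Il17f at chr1:20777146-20790617 on the minus strand.

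Receptors and regulators of the interleukin 17 programme were also higher. Il23r was 56.7, 31.4, 60.6 and 54.1 CPM in gamma-delta and between 0.578 and 1.18 CPM in alpha-beta T cells (log2 difference 5.88 ± 0.51, edgeR adjusted p = 1.15e-14). Il1r1 was 49.7, 70.7, 88.1 and 122 CPM against 2.12 to 4.27 CPM (log2 difference 4.86 ± 0.39). Both receptors were higher in gamma-delta T cells of every library. Sox13 (log2 difference 7.17) and Zbtb16 (5.75) were higher as well. Blk was 106, 66.8, 171 and 139.8 CPM against 0.433 to 1.46 CPM (log2 difference 7.36 ± 0.43); B cells use the same kinase, and 71.7% of all Blk UMIs lay in cells with fewer than 2 Cd3 UMIs.

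Smaller differences were measured for Il7r, the survival cytokine receptor (log2 difference 1.74 ± 0.14), Ccr2, a chemokine receptor of inflamed tissue (1.18 ± 0.17), Tmem176a (1.94 ± 0.16) and Cd44, an adhesion receptor (0.58 ± 0.12). Maf (log2 difference 0.25) and Ccr6 (-0.31) did not pass, with edgeR adjusted p of 0.489 and 0.898. Actn2 was 113, 94.3, 93.6 and 94.7 CPM in gamma-delta against 8.74 to 15.3 CPM in alpha-beta T cells (log2 difference 3.04 ± 0.27). Ramp1 (2.76), Igf1r (2.50) and Krt83 (2.43), a keratin gene, were among the 12 largest higher differences in a restricted ranking. It took genes with a mean of at least 50 CPM and the same direction in all 4 libraries. Unnamed gene models and T cell receptor segments were left out of it.

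**Figure D3:**
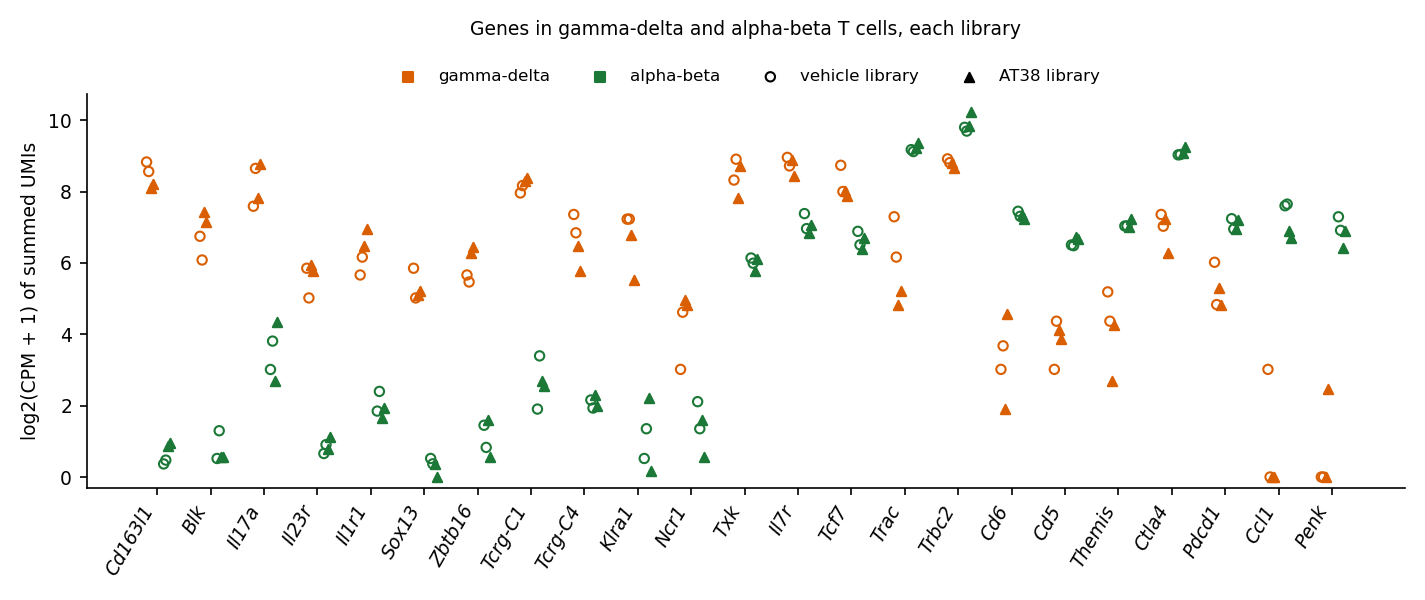
Level of selected genes, log2(CPM + 1) of UMIs summed per library, in gamma-delta (orange) and alpha-beta (green) T cells, with open circles for the 2 vehicle and filled triangles for the 2 AT38 libraries. Orange lies above green in every library from Cd163l1 to Tcf7 and below it from Trac to Penk.

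Klra1, Klra7, Klrk1, Klrb1c and Ncr1, genes of NK receptors, were higher in gamma-delta T cells, whereas Klrd1, the CD94 gene, was lower. Klra1 was 149, 149, 110.1 and 45.1 CPM in gamma-delta and between 0.118 and 3.6 CPM in alpha-beta T cells (log2 difference 6.39 ± 0.45, edgeR adjusted p = 3.68e-11), and Klra7 was 142, 334, 77.1 and 90.2 CPM against 3.41 to 6.9 CPM (4.92 ± 0.28). Ly49 genes are near-identical copies, so which of them a UMI came from is uncertain. Klrk1 (NKG2D) was 206 ± 48.7 against 84 ± 12.1 CPM (mean ± SD, n = 4; log2 difference 1.35). Of 7 tested NK markers 3 were higher and 0 lower: Klrb1c (log2 difference 3.89), Ncr1 (3.84) and Eomes (1.01). Of all genes tested, 3.9% were higher. The Eomes call was lost under 7 of 17 alternatives, over which its log2 difference was 0.64 to 2.00. The summed NK markers were 255 to 782 CPM in gamma-delta and 247 to 293 CPM in alpha-beta T cells, and the part of stray NK cells in these differences was not tested.

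Among genes of naive and recirculating T cells, 6 of 10 were higher and 0 lower, with a median log2 difference of 1.23. The background share of higher genes was again 3.9%. Tcf7, the gene of TCF-1, was 294 ± 88.7 against 98.5 ± 15.1 CPM (mean ± SD, n = 4; log2 difference 1.58 ± 0.15, edgeR adjusted p = 1.16e-12), and S1pr1, the receptor for exit from tissue, was 185 ± 39.8 against 63.7 ± 13.8 CPM (1.56 ± 0.18). Satb1, a chromatin organiser, differed by 1.18 ± 0.14. Txk, a Tec-family kinase of receptor signalling, was 319, 479, 223 and 419 CPM against 53.2 to 69.5 CPM (2.50 ± 0.16), and Cd7 differed by 2.33 ± 0.19.

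The interferon gamma and cytotoxic list was mixed. Of 20 tested genes 3 were higher (Klrk1, Eomes, Il2rb) and 4 lower (Cd27, Klrd1, Nkg7, Gzmk), with a median log2 difference of -0.12. The shares over all genes tested were 3.9% higher and 3.17% lower. The Cd27 call was lost under 5 of 17 alternatives. Nkg7 was 511, 569.6, 501 and 464 CPM in gamma-delta against 738 to 1044 CPM in alpha-beta T cells (log2 difference -0.72 ± 0.11, edgeR adjusted p = 2.77e-06). Set against alpha-beta T cells with Cd4 and no Cd8b1 alone, it turned to 0.45 (edgeR adjusted p = 0.0917). Ifng (log2 difference -1.15, edgeR adjusted p = 0.149), Gzmb (-0.10) and Tbx21 (-0.27) did not pass. Ifng was 106, 58.9, 85.3 and 18 CPM in gamma-delta T cells, all below the 122 to 178 CPM of alpha-beta T cells.

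Checkpoint receptors and activation genes were lower in 7 of 15 tested and higher in 2, with a median log2 difference of -1.18; the background share of lower genes was 3.17%. Ctla4 was 163, 129.6, 149 and 76.7 CPM in gamma-delta and between 521 and 609.9 CPM in alpha-beta T cells (log2 difference -2.07 ± 0.16, edgeR adjusted p = 2.23e-14). Pdcd1, the gene of PD-1, was 63.8, 27.5, 38.5 and 27.1 CPM against 122 to 150.2 CPM (-1.80 ± 0.23, edgeR adjusted p = 1.24e-08). Lag3 (-2.26), Tnfrsf18 (-1.31) and Tox (-1.18), a transcription factor of exhausted T cells, were lower too. The Lag3 call was lost under 3 of 17 alternatives. Among these were at least 3 UMIs of Trdc and Trdv4 and a required gamma gene UMI. Ctla4, Tnfrsf18, Penk, Areg and Il10 are known from regulatory T cells, which the gamma-delta rule removed through Foxp3 and the alpha-beta gate kept; their part in these differences was not tested.

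Receptor signalling genes were lower in 5 of 15 (Cd28, Cd2, Lck, Cd5, Cd6) and higher in 1 (Cd247, the CD3 zeta chain). Over all genes tested, 3.17% were lower and 3.9% higher. Cd6 was 7.09, 11.8, 2.75 and 22.5 CPM in gamma-delta and between 150.1 and 174 CPM in alpha-beta T cells (log2 difference -3.90 ± 0.31, edgeR adjusted p = 5.19e-15). Themis, needed for alpha-beta selection in the thymus, was 19.7 ± 12.3 against 135 ± 10.3 CPM (mean ± SD, n = 4; -2.96 ± 0.29), and Cd5 was 14.2 ± 5.35 against 96.2 ± 8.34 CPM (-2.64 ± 0.30). None of the 4 gamma-delta sums of these genes reached an alpha-beta sum.

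Of 13 tested T cell cytokine genes 1 was higher in gamma-delta T cells and 2 were lower, Il10 and Il13. The Il13 call was lost under 8 of 15 alternatives. Background shares were 3.9% higher and 3.17% lower. Ccl1, a chemokine gene, had 1 UMI in gamma-delta and 5548 in alpha-beta T cells, a level 149-fold lower in gamma-delta T cells (95% counting interval 26.7-fold to 5879-fold). Penk, the proenkephalin gene, had 1 against 4240 UMIs, 114-fold lower (20.4-fold to 4493-fold). Il10 had 0 UMIs in gamma-delta and 693 in alpha-beta T cells, at least 6.20-fold lower when 3 UMIs over the gamma-delta group are taken as the limit. Areg, a tissue repair growth factor, was 7.07 ± 2.24 against 46.1 ± 11 CPM (mean ± SD, n = 4; log2 difference -2.72 ± 0.43). Batf, a transcription factor of activated T cells, differed by -1.88 ± 0.35.

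Glycolysis and hypoxia genes were lower in 10 of 14 tested and higher in 0, with a median log2 difference of -0.66. Background shares for the lists of this paragraph were 3.17% lower and 3.9% higher. Gapdh was 454, 597, 699 and 694 CPM in gamma-delta and between 1189 and 1355 CPM in alpha-beta T cells (-0.99 ± 0.10, edgeR adjusted p = 4.04e-11), and Pkm, pyruvate kinase, differed by -0.70 ± 0.13. Proliferation genes were lower in 4 of 12 and higher in 0, with Birc5 at 13.5 ± 12 against 72.3 ± 7.09 CPM (mean ± SD, n = 4). The call of Tubb5, 1 of these 4 genes, was lost under 9 of 17 alternatives. Mki67, a marker of cycling cells, was found in 16 gamma-delta cells (2, 4, 8 and 2 by library). Immediate early and heat shock genes went the other way, with 6 of 12 higher and 0 lower, among them Ier2 (log2 difference 0.99), Jun (0.86) and Fos (0.73). Such genes are known to react to tissue dissociation, whose part in the difference was not tested.

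Tissue residence genes were higher in 3 of 12 and lower in 2, gamma-delta lineage regulators higher in 1 of 14 and lower in 2, interferon-response genes lower in 1 of 17, and NRF2 targets higher in 1 of 13 and lower in 2. Over all genes tested, 3.9% were higher and 3.17% lower, the background for every list of this paragraph. Lists with 1 or 2 calls are given as counts only. Cxcr6 (log2 difference -0.17) and Itgae (-0.10), receptors of tissue-resident T cells, did not pass. Among markers of other cells, dendritic cell genes were lower in 2 of 7, epithelial in 3 of 4, those of group 2 innate lymphoid cells in 3 of 6, and neutrophil and phagocyte genes in 0 of 8 each; Cd79b alone of 3 B cell markers was higher. Neutrophil markers summed to 793 to 5610 CPM in gamma-delta and 1110 to 3364 CPM in alpha-beta T cells, phagocyte markers to 275 to 1795 and 1347 to 2530 CPM, and dendritic cell markers, H2-Aa and H2-Ab1 included, to 1412 to 4252 and 2045 to 3377 CPM. The Cd79b call was lost under 7 of 14 alternatives. B cell markers summed to 12180 CPM in vehicle replicate 1 and to 116 to 130 CPM in the other gamma-delta sums, with Ms4a1 at 0. Lower values of Cxcl9 (log2 difference -3.72), Ccl22 (-3.02) and Spp1 (-2.47), made mainly by myeloid cells, stand beside those sums, and the part of myeloid RNA in them was not tested.

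Whether AT38 changed the number of gamma-delta T cells was asked next. Of all kept cells they made up 0.733% and 0.781% in the vehicle libraries and 1.31% and 0.935% in the AT38 libraries. The means were 0.757% ± 0.0344 and 1.12% ± 0.269 (SD, n = 2). Both AT38 values were above both vehicle values, and the exact two-sided permutation p of 0.333 is the smallest that 2 against 2 libraries can give. The exact binomial intervals of single libraries overlapped, for instance 0.556% to 1.07% in vehicle replicate 2 and 0.632% to 1.33% in AT38 replicate 2.

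Among gated T cells, gamma-delta and alpha-beta together, the share was 3.83% and 3.98% with vehicle and 4.92% and 3.17% with AT38. Here the AT38 libraries lay on both sides of the vehicle libraries, and the means were 3.90% ± 0.106 and 4.04% ± 1.24 (exact permutation p = 1, n = 2). Cells with Il17a made up 18.2% and 15.4% of gamma-delta T cells with vehicle and 25.0% and 23.3% with AT38 (exact permutation p = 0.333, n = 2), from 4, 6, 12 and 7 cells. Thinned to 1000 UMIs per cell, these shares were 18.2%, 5.13%, 6.25% and 10.0%, and the order of the group means was turned.

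**Figure D4:**
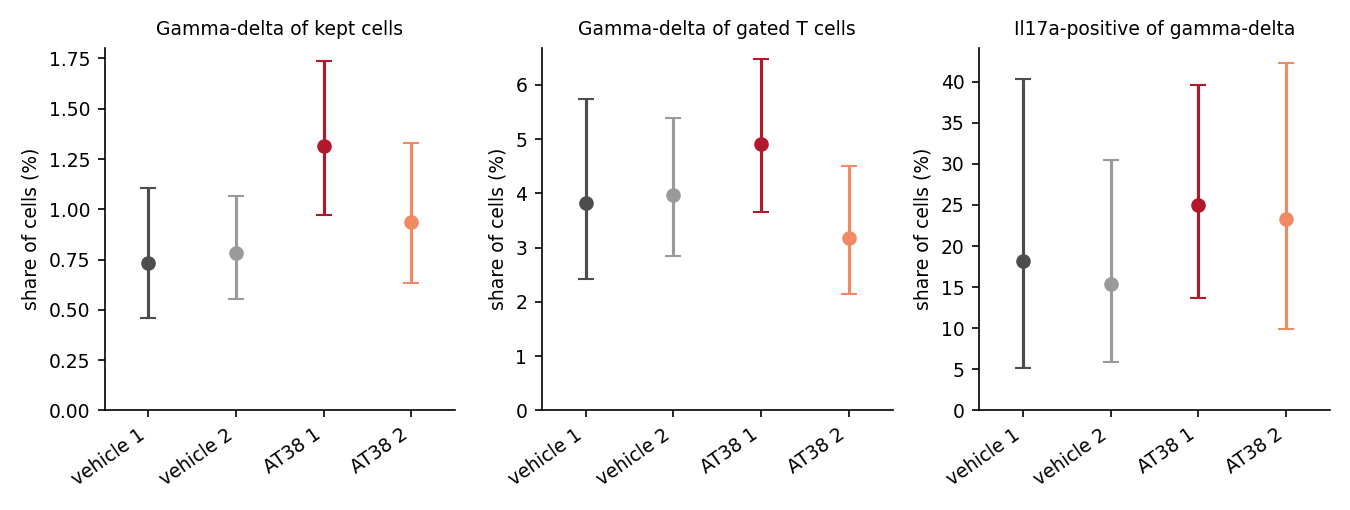
Gamma-delta T cells as a share (%) of kept cells and of gated T cells, and Il17a-positive cells as a share (%) of gamma-delta T cells, 1 point per library with its 95% exact binomial interval. The AT38 points lie above the vehicle points in the first and last panels and on both sides of them in the middle panel, with overlapping intervals throughout.

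AT38 and vehicle were compared across 3967 genes within gamma-delta T cells, and 8 passed (0.202%): 3 were higher with AT38 (0.0756%) and 5 lower (0.126%). The higher genes were Cd74, H2-Eb1 and H2-Ab1, which encode the invariant chain and chains of MHC class II, the molecules that present antigen to CD4 T cells. The lower genes were the chemokine genes Cxcl3 and Ccl9, the heat shock gene Hspa1a, the kinase gene Sgk1 and AA467197, which is also known as Nmes1 and was named after its values were seen. None of the interleukin 17, interferon gamma, receptor or checkpoint genes tested was among them. Without the 2 deepest cells of each library, an alternative chosen after seeing the data, 7 of the 8 genes entered the test. Cxcl3 was the only one still called, and Ccl9 was too low to be tested.

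Cd74 was 1199 and 1450 CPM with vehicle and 4156 and 3265 CPM with AT38 (1324 ± 177 against 3710 ± 630.3, mean ± SD, n = 2; log2 fold change 1.51 ± 0.15, edgeR adjusted p = 0.000336). H2-Eb1 was 553 and 597 against 1940 and 1371 CPM (1.55 ± 0.19, edgeR adjusted p = 0.00153), and H2-Ab1 was 695 and 1021 against 1723 and 1903 CPM (1.10 ± 0.18, edgeR adjusted p = 0.0208). For all 3 genes both AT38 libraries were above both vehicle libraries. H2-Aa did not pass, at 681 and 849 against 2444 and 1326 CPM (log2 fold change 1.33, edgeR adjusted p = 0.488). In alpha-beta T cells Cd74 was 2407 and 2880 CPM with vehicle and 2806 and 1774 CPM with AT38, without that order.

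These 4 genes were carried by few cells. Cells with 20 or more of their UMIs, a limit set after the values were seen, numbered 3, 4, 7 and 2 in the 4 libraries, and the median gamma-delta cell had 2, 1, 1 and 1. The 2 highest cells held 83.7% and 67.7% of the UMIs with vehicle and 60.4% and 97.5% with AT38. In cells below that limit of 20 the 4 genes summed to 460 and 158 CPM with vehicle and 228 and 271 CPM with AT38, so the groups overlapped there. The 6 dendritic cell markers outside MHC class II (Flt3, Xcr1, Clec9a, Cd209a, Siglech and Ccl22) summed to 35.5 and 19.6 CPM with vehicle and 85.3 and 94.7 CPM with AT38, higher in both AT38 libraries, and Siglech was at 0. Of their 5, 5, 31 and 21 UMIs, 5, 4, 26 and 20 were in the cells with 20 or more UMIs of the 4 genes. Their part in the MHC class II difference was not tested. The 3 calls were lost when Trdc and Trdv4 had to reach 3 UMIs (Cd74 log2 fold change 2.56 ± 0.70, edgeR adjusted p = 0.745), when a gamma gene UMI was required (2.02 ± 1.02, 0.907), and without the 2 cells with most UMIs of each library (1.33 ± 1.63, 0.998). Without those cells H2-Eb1 differed by 1.68 and H2-Ab1 by 0.31. H2-Ab1 was lost at a limit of 20% mitochondrial UMIs as well.

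**Figure D5:**
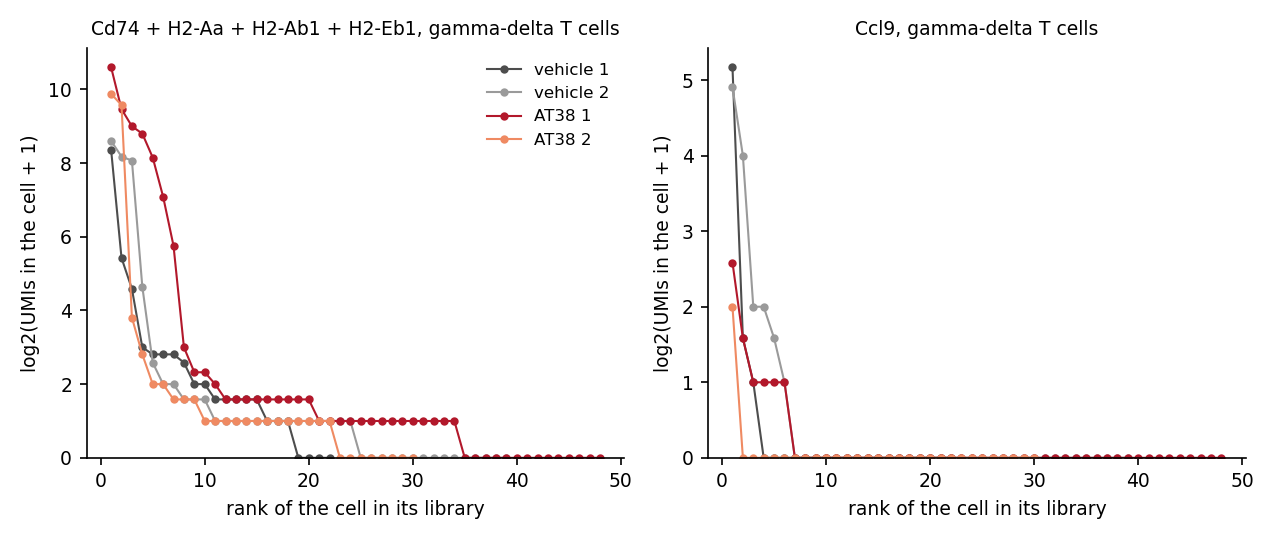
UMIs per gamma-delta T cell, as log2(UMIs + 1), of Cd74, H2-Aa, H2-Ab1 and H2-Eb1 summed (left) and of Ccl9 (right), with cells ranked from highest to lowest within each library along the horizontal axis. On the left 2 to 7 cells per library hold most UMIs and the curves then fall together; on the right nearly all cells are at 0.

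The lower genes rested on few UMIs. Cxcl3, a neutrophil-attracting chemokine gene, had 18 and 25 UMIs with vehicle and 2 and 1 with AT38 (128, 98.2, 5.5 and 4.51 CPM; edgeR adjusted p = 0.00377). The summed level was 21.2-fold lower with AT38 (95% counting interval 6.79-fold to 107-fold), and 1 cell held 88.9% and 76% of the vehicle UMIs. Ccl9, a chemokine gene of myeloid cells, was 269.6 and 208 against 30.3 and 13.5 CPM (log2 fold change -3.28 ± 0.41, edgeR adjusted p = 0.0016), and 1 cell held 92.1% and 54.7% of the vehicle UMIs. Both genes were lower in both AT38 libraries.

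Hspa1a fell by 2.61 ± 0.41 on the log2 scale, from 269.6 and 212 to 52.3 and 18 CPM (edgeR adjusted p = 0.0141), and it was the only one of 12 immediate early and heat shock genes to pass. Sgk1, a kinase induced by salt and by glucocorticoids, fell by 1.68 ± 0.30, from 248 and 251 to 68.8 and 85.7 CPM (edgeR adjusted p = 0.0349). Its call was lost under 8 of 14 alternatives. AA467197 fell by 2.61 ± 0.31, from 404 and 314 to 52.3 and 63.1 CPM (edgeR adjusted p = 0.00153). Summed phagocyte markers in the same cells were 1795 and 1143 CPM with vehicle and 1324 and 275 CPM with AT38, and neutrophil markers 1929 and 3858 against 793 and 5610 CPM. Their part in the lower genes was not tested.

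The genes that define the cells showed no difference that passed. Of 19 tested genes of the interleukin 17 list 0 rose and 0 fell, with a median log2 fold change of -0.09. Il17a was 296 ± 148 CPM with vehicle and 330.2 ± 152 CPM with AT38 (mean ± SD, n = 2; log2 fold change 0.13 ± 0.45, edgeR adjusted p = 0.999), and the libraries of both groups overlapped. Cd163l1 was 454 and 377 against 272 and 298 CPM (-0.51 ± 0.23, edgeR adjusted p = 0.717), and Blk was 106 and 66.8 against 171 and 139.8 CPM (0.93 ± 0.35, edgeR adjusted p = 0.621). Neither passed, although the libraries did not overlap. Of 17 interferon gamma and cytotoxic genes 0 passed, with a median of -0.16. Il17f, Ccr6, Sox13, Cd5, Areg and Pdcd1 were too low to enter the test. Changes of 2-fold were rarely detectable with so few cells, since 12% of genes given such a change in simulated counts were recovered, against 80% of genes changed 4-fold.

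The effect of AT38 was also compared between gamma-delta and alpha-beta T cells, which came from the same 4 libraries. Of 11609 genes 50 passed (0.431%), with the effect more positive in gamma-delta T cells for 39 (0.336%) and more negative for 11 (0.0948%). DESeq2 called 4. Cd74 had the smallest adjusted p among the genes named, with an AT38 effect 1.78 ± 0.15 higher on the log2 scale in gamma-delta T cells (edgeR adjusted p = 2.11e-29). Ccl4, a T cell and NK cell chemokine gene, went the other way (-1.38 ± 0.24, edgeR adjusted p = 1.17e-05), with 617 and 346 CPM in vehicle and 212 and 144 CPM in AT38 gamma-delta T cells. Within gamma-delta T cells alone Ccl4 did not pass (log2 fold change -1.36, edgeR adjusted p = 0.296).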

How the data were processed

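The authors deposited raw counts, UMIs of each gene in each barcode without normalization, from a 10x 3′ kit (v3.1, per the labels); the submitters' processing notes name Cell Ranger 3.1.0 and mm10. The annotation release is not given in the sources used here. About 10000 cells were loaded per library for a target of 4000, per the labels' protocols. Gene positions come from GENCODE M21 (GRCm38), matched by Ensembl ID for 30934 of 31053 genes.

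Cells were gated on raw UMIs as described. The members and the 22 gene lists were chosen with earlier results of these data known. Scanpy 1.11.5 scrublet's own threshold called 0.0942% of barcodes and was not used; doublets stayed in, and removal of the highest scores (0.8% per 1000 barcodes, 460 cells, 5 of them members) was an alternative. UMIs were summed per library and tested with edgeR 4.0.16 (quasi-likelihood, TMM, filterByExpr) at a Benjamini-Hochberg adjusted p of 0.05; DESeq2 1.42.0 was an alternative. Shares were compared by exact permutation with SciPy 1.17.1, and intervals are 95% Clopper-Pearson, for counting error only. The edgeR fits were tested on simulated data with 200 changed genes.

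Named genes were the 12 largest higher and 12 largest lower of gamma-delta against alpha-beta T cells (mean of at least 50 CPM, same direction in all 4 libraries), up to 10 in each direction for AT38 (libraries not overlapping), up to 4 of the smallest p per list, and a fixed set of gamma-delta genes; unnamed models, immunoglobulin segments, ribosomal pseudogenes and sex-linked genes were left out.

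Replicate numbers were not treated as pairs, and the labels tie no vehicle pool to an AT38 pool. Results of some genes are not reported here.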

Additional observations from a re-analysis of the deposited data

Results flagged for a closer look

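Of the 50 genes whose AT38 response differed between the cell types, 16 met the rule for named genes. In these the effect of AT38 differed between gamma-delta and alpha-beta T cells by the test of the difference itself (edgeR quasi-likelihood, type by treatment, adjusted over 11609 genes). In 10 of them the effect was more positive in gamma-delta T cells. Cd74 had an adjusted p of 2.11e-29, with 169 and 369 gamma-delta UMIs under vehicle and 1510 and 724 under AT38. Wfdc17 (adjusted p = 8.68e-06; 3, 20, 53 and 43 gamma-delta UMIs in the 2 vehicle and 2 AT38 libraries), Plbd1 (0.000483; 4, 16, 52 and 37), Naaa (0.00244; 5, 13, 33 and 29) and Napsa (0.00307; 7, 10, 34 and 42) are genes of myeloid cells and were higher in both AT38 libraries. Chil3 (adjusted p = 0.00307; 1, 11, 146 and 4 UMIs) and Ctsh (0.00776; 7, 16, 106 and 10) stood high in AT38 replicate 1 alone.

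Genes at 0 in both vehicle sums of gamma-delta T cells get no fold. Ccl24 (adjusted p = 0.000643) had 16 UMIs, all in AT38 replicate 1, Tnfrsf4 (0.00594) had 16 and 1 in the AT38 libraries, and Ccl17 (0.0303) had 8 and 1.

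The effect was more negative in gamma-delta T cells for 6 genes. Hspa1a had an adjusted p of 9.25e-05, Ccl4 of 1.17e-05, Ccl9 of 0.00658 and Sgk1 of 0.0368, with the values given above. Clu (adjusted p = 0.00642) had 5, 10, 3 and 2 gamma-delta UMIs against 1415, 1977, 5464 and 970 in alpha-beta T cells. Sema6d (0.0288) had 21, 19, 14 and 6 gamma-delta UMIs. The part of other cells' RNA in these values was not tested.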

How the results depend on the processing

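For AT38 against vehicle in gamma-delta T cells, 8 genes were called; 37 were called without the filter on low counts, 15, 31, 38 and 81 without vehicle replicate 1, vehicle replicate 2, AT38 replicate 1 and AT38 replicate 2, 0 with at least 3 UMIs of Trdc and Trdv4 (219 at an unadjusted p under 0.05; DESeq2 was not run on these cells), 0 with a gamma gene UMI required (191) and 1 without the 2 deepest cells of each library. The lone library of a group was then assumed to vary like the others. The counts of 219 and 191 were out of 3357 genes tested at 3 UMIs and 3391 with a gamma gene UMI required. Only 6 of the 8 genes entered the test at 3 UMIs or with a gamma gene UMI required. Cxcl3 and Ccl9 did not. For gamma-delta against alpha-beta T cells, 754 genes were called; 478 were called against Cd4-positive cells alone, 195 with cells thinned to 1000 UMIs (92 higher, 103 lower) and 1205 without the 2 deepest cells (547 higher, 658 lower), and 508 to 764 when 1 library was left out. Of the 50 genes whose AT38 effect differed between the types, DESeq2 called 4 in all, leaving out 1 library gave 21 (without vehicle replicate 1) to 74 (without AT38 replicate 2), and leaving out the deepest cells gave 17. Fewer genes were tested after thinning and with stricter rules; the cause of the other moves was not tested.

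The difference in the gamma-delta share of gated T cells, 0.144 percentage points, ranged from -0.730 without AT38 replicate 1 to 1.02 without AT38 replicate 2. The difference in the Il17a-positive share turned from 7.38 to -3.53 percentage points after thinning. Nkg7 turned to a log2 difference of 0.45 against Cd4-positive alpha-beta T cells. With a replicate block, AT38 against vehicle gave 8 genes, 7 of them shared. Deviations of same-numbered libraries from their group means had a correlation of -0.0149. With 2 libraries per group this is a single value, the same for both pairs by construction. The alternative without any Trac, Trbc1 or Trbc2 UMI left 13 cells (0, 6, 6 and 1), and its gene fits were not run; those of Trdv4-positive against Trdv4-negative cells were not run either. With 22 to 48 cells per library, genes of a few UMIs could not be compared.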
